A study of Mus musculus with 6 samples.

Results

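Ferroptosis is a form of cell death in which iron drives the oxidation of polyunsaturated fatty acids in membrane phospholipids until the membrane fails. The set described here is 10 genes, all found by gene name among the 52405 genes listed: the defences Gpx4, Slc7a11, Aifm2 and Gch1, the lipid-modifying enzymes Acsl4 and Lpcat3, and the iron-handling genes Tfrc, Hmox1, Fth1 and Ftl1. They were measured by RNA-seq in proximal tubule cells from uninjured kidneys of adult female C57BL/6 mice, in 3 libraries from mice with a proximal-tubule-specific knockout of the insulin-like growth factor 1 receptor gene Igf1r (KO) and 3 libraries from control mice (Ctr). All animals of both groups had been ovariectomized at postnatal day 21. After the cortex was dissociated, cells carrying prominin-1 on their surface were captured on magnetic beads. The sources used here do not give the Cre line behind the knockout or the exact age of the mice.

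GPX4 is a selenium-containing enzyme that reduces lipid hydroperoxides inside membranes with electrons from glutathione, and SLC7A11 brings in the cystine from which cells can make that glutathione. AIFM2 (also called FSP1) and the product of GCH1 restrain lipid oxidation by separate routes, through reduced ubiquinone and through tetrahydrobiopterin. The proximal tubule reabsorbs filtered iron-bound proteins and is rich in mitochondria, and it is a site at which ferroptosis is known from mouse models of acute kidney injury.

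The libraries held approximately 20200000 to 25600000 sequenced units each, as estimated from the steps in which low values occur. Whether such a unit is a read or a read pair is not stated. Igf1r was at 4.78, 7.67 and 5.08 FPKM in KO replicates 1, 2 and 3 and at 18.7, 15.3 and 22.7 FPKM in Ctr replicates 1, 2 and 3, so every KO library lay below every Ctr library (exact two-sided permutation test p = 0.1, the smallest that 3 against 3 libraries can give). Its log2 change was -1.55 (SE 0.19), and in the fit over all genes tested it too missed the threshold used below (limma adjusted p = 0.267, and 0.287 with the replicate number in the fit). All 10 proximal tubule markers were above 1 FPKM on average, with Slc34a1, the phosphate transporter of this segment, at 1935 to 2669 FPKM. Their summed level was 3752 to 4336 FPKM in KO and 3679 to 4740 FPKM in Ctr. Transcripts of later segments were also abundant: the summed level of 8 markers from the loop of Henle to the collecting duct was 2332 to 3757 FPKM in KO and 2018 to 2744 FPKM in Ctr. In KO replicate 2 these markers summed to 3757 FPKM, beside 3752 FPKM for the proximal tubule markers. The libraries numbered 1 stood apart in both groups. Summed podocyte markers were at 196.5 FPKM in KO replicate 1 and 263 FPKM in Ctr replicate 1, and at 6.65 to 12.3 FPKM in the other 4 libraries, and 6 erythroid markers summed to 139 FPKM in KO replicate 1 and 297 FPKM in Ctr replicate 1, against 0.99 to 5.4 FPKM in the others. FPKM, a count scaled by transcript length and library size, are relative to each library's own total, and in such bulk samples fewer cells of a type and less RNA per cell cannot be told apart.

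The 10 genes spanned levels from among the most abundant transcripts of these libraries to the limit of detection. Fth1 averaged 3377 FPKM over the 6 libraries and Ftl1 3005 FPKM, ranking 19 to 21 and 21 to 27 among all rows of a library. Gpx4 followed at 731 FPKM, ranking 71 to 89. Lpcat3 averaged 50.6, Tfrc 24.0, Acsl4 18.03, Hmox1 10.8 and Aifm2 9.16 FPKM. Gch1 at 0.305 FPKM and Slc7a11 at 0.0217 FPKM came last. The ranges over the 6 libraries overlapped for 3 pairs of neighbours in this order, Fth1 with Ftl1, Tfrc with Acsl4, and Hmox1 with Aifm2. Within a library Fth1 was above Ftl1 in 6 of 6, Tfrc above Acsl4 in 5 of 6 and Hmox1 above Aifm2 in 5 of 6. The other neighbours did not overlap, and the widest gap among the genes averaging at least 1 FPKM was the 14.5-fold step from Gpx4 down to Lpcat3.

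**Figure D1:**
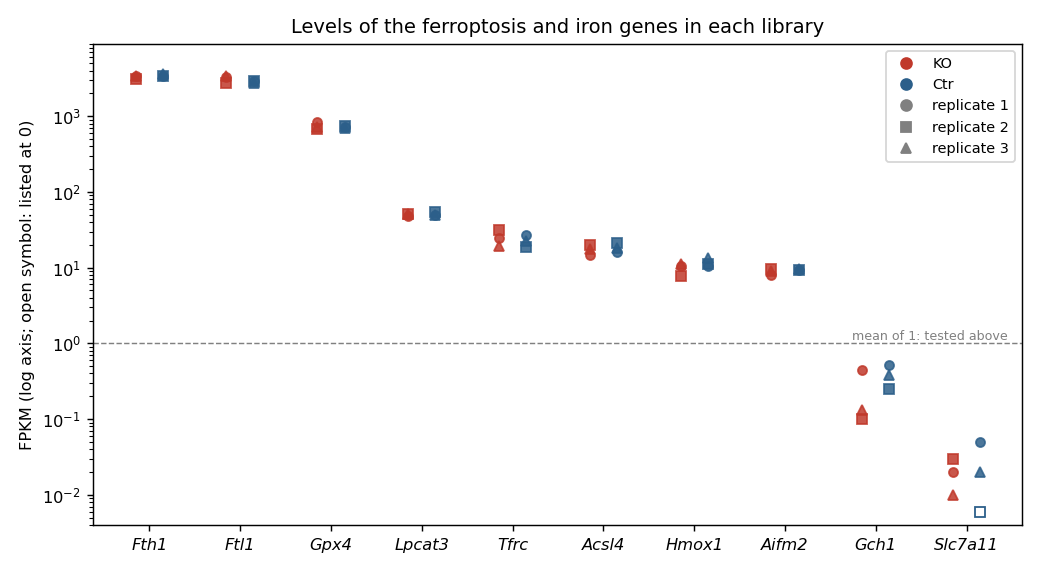
FPKM of the 10 genes in each library on a log axis, KO (red) left of Ctr (blue), with a symbol shape for each replicate number, an open symbol for a value listed at 0 and a dashed line at 1 FPKM. The ferritin genes lie between 2765 and 3621 FPKM, Gpx4 between 675 and 834 FPKM, 5 genes between 7.83 and 54.7 FPKM, and Gch1 and Slc7a11 below 1 FPKM.

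The comparison of KO with Ctr asks whether any of these genes differed with the knockout of Igf1r, and none was called. Of the 10, 8 averaged at least 1 FPKM over the 6 libraries and were tested, in 1 limma fit with all 12770 such genes. None of the 8 passed the threshold of 0.05 on the Benjamini-Hochberg adjusted p (adjusted p = 1.0 for each), where 0.0235% of all genes tested passed. At an unadjusted limma p under 0.05 there were 0 of the 8, against 3.51% of all genes tested. Nor did any of the 8 have KO and Ctr values that failed to overlap, as 8.59% of all genes tested did. By the estimates, 3 were higher and 5 lower in KO, with a median log2 change of -0.054, against -0.019 over all genes tested, of which 56.4% had a lower estimate. In a limma fit that takes the replicate number as a term, the adjusted p of the 8 ran from 0.878 to 0.957, while 0.0313% of all genes tested passed. Under that fit 0 of the 8 had an unadjusted p under 0.05, against 5.64% of all genes tested. The labels name biological replicates without saying which animals they came from, so p-values measure the spread between these libraries.

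Among the defences, Gpx4 (ENSMUSG00000075706, GRCm38 chr10:80047166-80056439) was at 834, 675 and 728 FPKM in KO replicates 1, 2 and 3, and at 713, 738 and 699 FPKM in Ctr replicates 1, 2 and 3. KO held both the highest and the lowest of the 6 values. The means were 746 ± 80.8 FPKM in KO and 716 ± 20.1 FPKM in Ctr (SD, n = 3 each). The log2 change, on the scale of log2(FPKM + 1) used for every change given here, was 0.052 (95% interval -0.16 to 0.26). The estimate was -0.031 without KO replicate 1, so its sign rested on that library.

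Gpx4 has a transcribed, processed copy elsewhere on chromosome 10, Gpx4-ps2, whose annotated transcript shares 90.8% of its words of 25 bases with Gpx4. It was listed at 63.1 to 77.2 FPKM, on average 9.72% of the level of Gpx4. The division of reads between the 2 rows was an estimate of the authors' quantification and is uncertain.

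Aifm2 (ENSMUSG00000020085, chr10:61715263-61739260) encodes an oxidoreductase that regenerates the radical-trapping form of ubiquinone. It was at 7.95, 9.71 and 9.14 FPKM in KO replicates 1 to 3 and at 9.25, 9.34 and 9.56 FPKM in Ctr replicates 1 to 3. KO again held the lowest and the highest value. Its log2 change was -0.068 (95% interval -0.29 to 0.15). Over the 6 libraries Aifm2 and Gpx4 ran in opposite directions (Pearson r = -0.97 on the log2 scale), with KO replicate 1 highest in Gpx4 and lowest in Aifm2. This was the most negative correlation of the 28 pairs of genes tested, so it is a description with no test. Within a library both genes are relative to the same total.

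Slc7a11 (ENSMUSG00000027737, chr3:49892526-50443614), the transport subunit of the cystine-glutamate exchanger, was close to absent. It was listed at 0.02, 0.03 and 0.01 FPKM in KO replicates 1 to 3 and at 0.05, 0 and 0.02 FPKM in Ctr replicates 1 to 3. With the longest coding transcript these values stand for about 2 to 6 sequenced units per library in KO and 0 to 10 in Ctr, too few for a small difference to be detected. In a limma fit with no filter on low values the log2 change was -0.0045 (95% interval -0.069 to 0.060, adjusted p = 1.0), on a scale that understates the change of so low a gene. Slc3a2, the partner that carries SLC7A11 and several other transporters to the membrane, was at 153 to 241 FPKM in KO and 146 to 234 FPKM in Ctr. The enzymes that make glutathione from cysteine were expressed as well, with Gclc at 58.4 FPKM, Gclm at 128 FPKM and Gss at 82.3 FPKM on average, as was Cth, which makes cysteine from cystathionine, at 97.8 FPKM.

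Gch1 (ENSMUSG00000037580, chr14:47153895-47189413), the entry enzyme of tetrahydrobiopterin synthesis, was also below the level tested. It was at 0.45, 0.10 and 0.13 FPKM in KO replicates 1 to 3 and at 0.52, 0.25 and 0.38 FPKM in Ctr replicates 1 to 3. The groups overlapped, and in each group the library numbered 1 was the highest. Those 2 libraries were also the highest in summed endothelial markers, at 95.4 FPKM in KO replicate 1 and 117 FPKM in Ctr replicate 1 against 8.95 to 15.0 FPKM in the other 4. They were likewise the highest in summed podocyte, erythroid, macrophage, and fibroblast and mesangium markers, so these cell types cannot be told apart here. The part of any of these cells in the Gch1 values was not tested. In a fit with no filter on low values the log2 change of Gch1 was -0.18 (95% interval -0.50 to 0.14, limma adjusted p = 0.985). The later enzymes of the pathway stood far above it per length, with Pts at 59.2 FPKM and Spr at 106 FPKM on average, and so did Qdpr, which regenerates tetrahydrobiopterin, at 265 FPKM.

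Acsl4 and Lpcat3 act in sequence to build the phospholipids that ferroptosis oxidizes. Acsl4 (ENSMUSG00000031278, chrX:142317993-142390535) activates arachidonic and related acids to their coenzyme A esters. It was at 14.7, 20.1 and 17.4 FPKM in KO replicates 1 to 3, against 16.3, 21.3 and 18.4 FPKM in Ctr replicates 1 to 3. The groups overlapped almost fully. KO lay below Ctr at each replicate number, with differences of -1.65, -1.17 and -1.02 FPKM (KO minus Ctr). The share of all genes that keep 1 direction at every number was not computed. The log2 change was -0.10 (95% interval -0.43 to 0.23), with an unadjusted p of 0.493 by limma, and 0.243 with the replicate number in the fit.

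Lpcat3 (ENSMUSG00000004270, chr6:124663027-124704418) inserts those acyl chains into lysophospholipids. It was at 47.5, 50.9 and 51.1 FPKM in KO replicates 1 to 3 and at 49.7, 54.7 and 49.5 FPKM in Ctr replicates 1 to 3. Of the 8 genes tested it varied least over the 6 libraries, with a coefficient of variation of 4.77%. Its log2 change was -0.04 (95% interval -0.21 to 0.13), the narrowest interval of the 8.

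**Figure D2:**
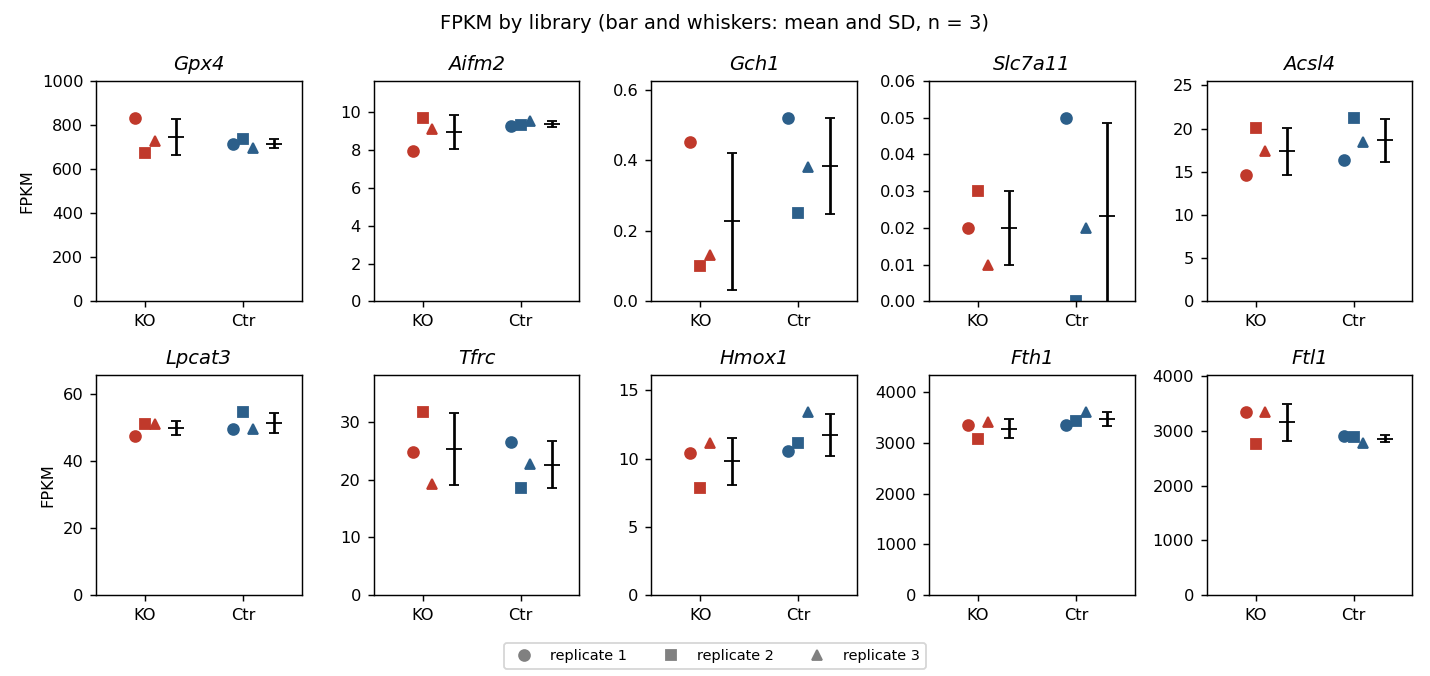
FPKM of each of the 10 genes in KO (red, left) and Ctr (blue, right), with a symbol shape for each replicate number and the mean and SD of 3 libraries drawn in black beside them, each axis starting at 0. In every panel the KO and Ctr values overlap, and Gch1 and Slc7a11 stay below 1 FPKM.

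Cells set ferritin and transferrin receptor levels by a shared switch. When iron is short, the iron regulatory proteins bind a hairpin, the iron-responsive element, in the 5′ untranslated region of ferritin mRNAs and block their translation, and bind similar hairpins in the 3′ untranslated region of Tfrc mRNA and stabilize it. A search of the annotated coding transcripts of the 10 genes, on the transcript strand, looked for an unpaired C, 5 bases of a stem, the letters CAGTG, a base other than G, and 5 bases that pair with the first 5 (G-T pairs allowed). It matched 3 of the 10 genes, Fth1 and Ftl1 in the 5′ untranslated region and Tfrc in the 3′ untranslated region at 4 places. Among the longest coding transcripts of 21901 genes, 0.0731% held a match in the 5′ and 0.42% in the 3′ untranslated region. The search of the 10 genes was not limited to the longest transcript, so its count and these shares are not like measures. The matches are shown because they mark which of these mRNAs carry the element, with 6 flanking bases on each side, on the transcript strand, and with the unpaired C and the loop in capitals (GENCODE M21, GRCm38).
Fth1, 5′, chr19:9982732-9982760, plus strand: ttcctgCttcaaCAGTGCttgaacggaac
Ftl1, 5′, chr7:45459779-45459807, minus strand: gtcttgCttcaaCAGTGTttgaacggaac
Tfrc, 3′, chr16:32631219-32631247, plus strand: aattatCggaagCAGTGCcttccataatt
Tfrc, 3′, chr16:32631598-32631626, plus strand: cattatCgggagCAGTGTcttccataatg
Tfrc, 3′, chr16:32631663-32631691, plus strand: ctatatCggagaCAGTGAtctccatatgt
Tfrc, 3′, chr16:32631710-32631738, plus strand: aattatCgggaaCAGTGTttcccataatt
The 2 ferritin elements were identical at 26 of 29 bases. The letters CAGTG are common to all because the search asked for them.

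Tfrc (ENSMUSG00000022797, chr16:32608920-32632794), the receptor that takes up transferrin-bound iron, varied most of the 8 genes tested. It was at 24.9, 31.8 and 19.3 FPKM in KO replicates 1 to 3, against 26.6, 18.5 and 22.8 FPKM in Ctr replicates 1 to 3. KO replicate 2 was the highest library, and the KO values lay on both sides of each Ctr value except that of Ctr replicate 2, which was the lowest of all. The log2 change was 0.14 (95% interval -0.32 to 0.60), and -0.031 without KO replicate 2. That library was also the highest in the 8 markers from the loop of Henle to the collecting duct, at 3757 FPKM. These markers summed to 2332 and 2345 FPKM in KO replicates 1 and 3. In Ctr replicates 1 to 3 they summed to 2018, 2744 and 2604 FPKM. Among these other 5 libraries, the lowest marker sum went with the highest Tfrc value (Ctr replicate 1). The highest marker sum among them went with the lowest Tfrc value (Ctr replicate 2). The part of those segments in the Tfrc values was not tested. The 3 genes whose values over the 6 libraries were most like those of Tfrc, of 8820 compared, were Dynll1, Polb and Sfrp1 (Pearson r of 0.98, 0.97 and 0.97, as a description).

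Hmox1 (ENSMUSG00000005413, chr8:75093621-75100589), the inducible enzyme that releases iron from haem, had the largest estimate of the 8. It was at 10.4, 7.83 and 11.1 FPKM in KO replicates 1 to 3, against 10.6, 11.1 and 13.5 FPKM in Ctr replicates 1 to 3. KO replicate 2 held the lowest value and Ctr replicate 3 the highest, and KO replicate 3 lay among the Ctr values, so the groups overlapped. At each replicate number KO was below Ctr, with differences of -0.12, -3.3 and -2.31 FPKM (KO minus Ctr), a pattern whose share over all genes was not computed. The means were 9.80 ± 1.74 FPKM in KO and 11.7 ± 1.53 FPKM in Ctr (SD, n = 3 each). The log2 change was -0.24 (95% interval -0.59 to 0.10), with an unadjusted p of 0.144 by limma, and 0.0691 with the replicate number in the fit. Without KO replicate 2 the log2 change was -0.10. Hmox1 is also strongly expressed by macrophages that clear red cells. The 9 macrophage markers summed to 14.9 to 27.6 FPKM in KO and 16.5 to 22.8 FPKM in Ctr. Most of that sum was Cd74, at 12.99 to 23.45 FPKM over the 6 libraries, and Csf1r was at 1.2 to 2.29 FPKM. The other 7 markers averaged under 1 FPKM, among them Cd163, a marker of haem-scavenging macrophages, at 0.02 to 0.07 FPKM. The part of macrophages in the Hmox1 values was not tested. The constitutive enzyme Hmox2 was at 44.5 to 49.4 FPKM in KO and 46.7 to 51.9 FPKM in Ctr.

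**Figure D3:**
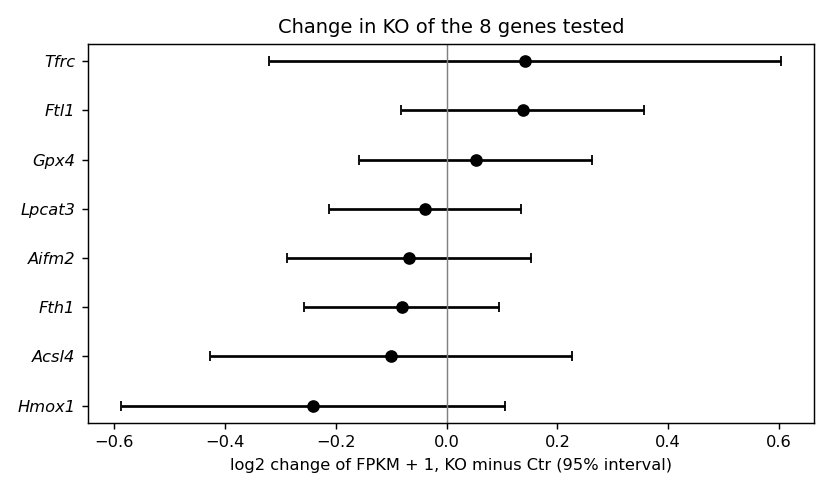
Log2 change of FPKM + 1, KO minus Ctr, of the 8 genes tested (points), with the 95% interval from limma (bars) and a vertical line at 0. Every interval includes 0. The estimates run from -0.24 for Hmox1 to 0.14 for Tfrc, and Tfrc has the widest interval.

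Ferritin is a hollow shell of heavy and light subunits that stores iron. The heavy subunit, from Fth1, oxidizes iron so that it can enter, and the light subunit, from Ftl1, supports formation of the iron core. Fth1 (ENSMUSG00000024661, chr19:9980598-9985098) was at 3359, 3073 and 3418 FPKM in KO replicates 1 to 3, against 3351, 3441 and 3621 FPKM in Ctr replicates 1 to 3. KO replicate 2 was the lowest library and the other 2 KO libraries lay within the Ctr range. The log2 change was -0.081 (95% interval -0.26 to 0.095), and -0.034 without KO replicate 2. After quantile normalization it was -0.12 (95% interval -0.20 to -0.038, limma unadjusted p = 0.0106, adjusted p = 1.0). Ftl1 (ENSMUSG00000050708, chr7:45457944-45459884) was at 3346, 2765 and 3350 FPKM in KO replicates 1 to 3, against 2906, 2883 and 2781 FPKM in Ctr replicates 1 to 3. KO replicates 1 and 3 lay above all Ctr values and KO replicate 2 below them. The log2 change was 0.14 (95% interval -0.082 to 0.36), and 0.23 without KO replicate 2 (95% interval 0.035 to 0.42, limma unadjusted p = 0.0279, adjusted p = 1.0). After quantile normalization it was -0.0030. The 2 genes together reached 6437 ± 520 FPKM in KO and 6328 ± 73.3 FPKM in Ctr (SD, n = 3 each), between 0.777 and 0.906% of the summed FPKM of a library.

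The ratio of the 2 subunits' transcripts was compared as well. Fth1 over Ftl1, both in FPKM, was 1.004, 1.11 and 1.02 in KO replicates 1 to 3 and 1.15, 1.19 and 1.30 in Ctr replicates 1 to 3. Every KO ratio lay below every Ctr ratio. The means were 1.05 ± 0.0579 in KO and 1.22 ± 0.0769 in Ctr (SD, n = 3 each), a difference of -0.22 on the log2 scale, or 0.86 of the Ctr ratio. At the 3 replicate numbers the differences on that scale were -0.20, -0.10 and -0.35 (KO minus Ctr). By exact permutation (two-sided) p was 0.1, the smallest possible with 3 against 3 libraries, so this test cannot bring the ratio past 0.05. Of the 28 ratios among the 8 genes tested, 2 (7.14%) had groups that did not overlap, this one and that of Ftl1 to Hmox1, where 8.59% of all single genes tested did not overlap. These 28 ratios share genes, and the share over ratios of all gene pairs was not computed, so the 2 shares are not like measures. After quantile normalization, an alternative added after the data were seen, the groups overlapped and the log2 difference was -0.12 (exact permutation p = 0.4).

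Ftl1 has 3 expressed copies that share at least 25% of their words of 25 bases with it, Ftl1-ps1 on chromosome 13, Gm15590 on chromosome 17 and Ftl2-ps on chromosome 4. Together they were listed at 163 to 194 FPKM in KO and 164 to 176 FPKM in Ctr. With the copies summed into their genes, Fth1 included, also an alternative added after the data were seen, the ratio was 0.95, 1.05 and 0.968 in KO replicates 1 to 3 and 1.09, 1.13 and 1.23 in Ctr replicates 1 to 3. The groups remained apart, with a log2 difference of -0.22 (exact permutation p = 0.1).

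Of 8820 genes compared, the one whose values over the 6 libraries were most like those of Hmox1 was Fth1 (Pearson r = 0.998 on log2(FPKM + 1), Spearman rho = 0.886, 6 libraries). KO replicate 2 was the lowest library and Ctr replicate 3 the highest for both genes. Without these 2 libraries Pearson r was 0.95 over the 4 left, also as a description. Fth1 was picked as the highest of 8820 correlations over only 6 libraries, so its r is a description with no test. Adm and Nudt9 came next (Pearson r of 0.99 for each). The correlation of Hmox1 with Ftl1 was 0.11, as a description over the same 6 libraries.

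**Figure D4:**
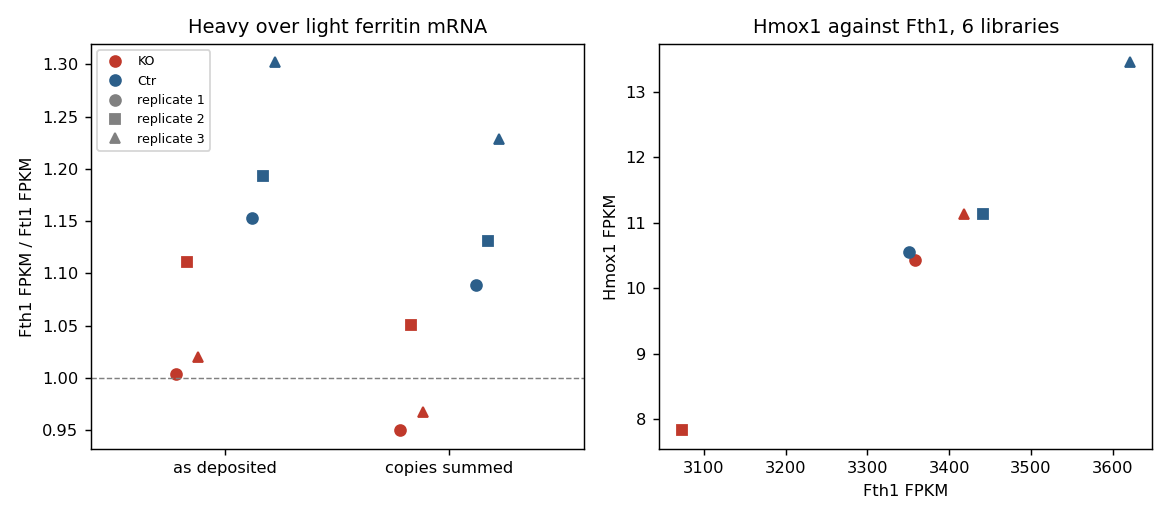
Left, ratio of Fth1 to Ftl1 FPKM in each library, from the rows as deposited and with near-identical copies summed into their genes, KO (red) left of Ctr (blue), on an axis that does not start at 0, with a dashed line at a ratio of 1. Right, Hmox1 FPKM against Fth1 FPKM in the 6 libraries. All KO ratios lie below all Ctr ratios, and in the right panel KO replicate 2 is lowest and Ctr replicate 3 highest on both axes.

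The pathways around the 10 genes were followed in 9 lists of 113 other genes. Of these, 100 averaged at least 1 FPKM and were tested, 38 with a higher and 62 with a lower estimate in KO. Over all genes tested 56.4% had a lower estimate. The median log2 change was -0.038 for the 100 and -0.019 over all genes tested, and the counts of each list below are to be read beside these shares. None passed over all genes tested (0 of 100 at a limma adjusted p under 0.05, with or without the replicate number in the fit). At an unadjusted limma p under 0.05 there were 4 of 100, against 3.51% of all genes tested. With the replicate number in the fit there were 8 of 100, against 5.64% of all genes tested. Groups that did not overlap were found for 3 of the 100, against 8.59% of all genes tested.

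Of the genes of glutathione and cystine supply, 8 of 10 tested genes had a lower estimate (median log2 change -0.11). The examples of smallest p were Ggt1, the brush border enzyme that splits glutathione in the tubule lumen, at 450.5 ± 30.5 FPKM in KO and 495 ± 27.1 FPKM in Ctr, and Gclm, the regulatory subunit of the first enzyme of glutathione synthesis, at 122 ± 8.14 FPKM in KO and 134 ± 8.90 FPKM in Ctr (SD, n = 3 each). For selenoprotein synthesis, on which GPX4 depends, 4 of 7 had a lower estimate (median -0.093), with Sephs2 at a log2 change of -0.14 (SE 0.14) and Selenop, a selenium carrier, at -0.12 (SE 0.12).

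Radical trapping independent of GPX4 gave 10 of 16 genes with a lower estimate (median -0.039). Dhodh, a mitochondrial enzyme that reduces ubiquinone while making pyrimidines, was at 11.1, 9.73 and 11.3 FPKM in KO replicates 1 to 3 and at 8.93, 8.33 and 9.28 FPKM in Ctr replicates 1 to 3. All its KO values lay above all its Ctr values, with a log2 change of 0.25 (SE 0.091, limma unadjusted p = 0.0289, adjusted p = 1.0). Coq6, which acts in ubiquinone synthesis, had a log2 change of 0.17 (SE 0.093). Pdss2, which helps make the ubiquinone tail, lay the other way, with every KO value below every Ctr value (log2 change -0.15, SE 0.088), and is named for that after its values were seen.

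For polyunsaturated phospholipid synthesis and oxidation, 11 of 17 had a lower estimate (median -0.055). Por, the reductase that passes electrons to P450 enzymes and can feed lipid oxidation, was at 130 to 144 FPKM in KO and 151 to 167 FPKM in Ctr. Its groups did not overlap (log2 change -0.22, SE 0.072, limma unadjusted p = 0.0169, adjusted p = 1.0). Fads1, a desaturase that makes arachidonic acid, was at 37.7 ± 1.74 FPKM in KO and 30.8 ± 5.06 FPKM in Ctr (SD, n = 3 each), a log2 change of 0.29 (SE 0.12), with Ctr replicate 1 at 36.7 FPKM among the KO values. Of the lipoxygenases in this list, Alox15 was at or below 0.13 FPKM and Alox5 at or below 0.35 FPKM in all libraries. Alox12 was at 1.98 to 2.95 FPKM, with a log2 change of -0.10 (SE 0.15).

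Iron genes beyond the 4 above showed estimates on both sides of 0. In the uptake list 5 of 7 were lower (median -0.083), with Steap3, an endosomal iron reductase, at a log2 change of -0.28 (SE 0.18) and Lrp2, the megalin receptor of filtered proteins, at -0.15 (SE 0.14). In the list of storage, export and sensing 5 of 9 were lower (median -0.0025). Ireb2, one of the iron regulatory proteins, had a log2 change of -0.11 (SE 0.079), and Fbxl5, which targets it for destruction when iron is plentiful, one of -0.070 (SE 0.067). Slc40a1, the iron exporter ferroportin, was at 22.9 to 28.7 FPKM in KO and 19.7 to 30.1 FPKM in Ctr. The mitochondrial ferritin Ftmt was listed at 0 in all 6 libraries.

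For haem and mitochondrial iron 10 of 16 were lower (median -0.021). Alas1, the first enzyme of haem synthesis, was at 54.5, 82.4 and 83.9 FPKM in KO replicates 1 to 3 and at 50.6, 44.8 and 71.9 FPKM in Ctr replicates 1 to 3. Its groups overlapped, and KO was above Ctr at each replicate number. The log2 change was 0.40 (SE 0.22, limma unadjusted p = 0.115, and 0.0378 with the replicate number in the fit). Abcg2, a porphyrin and urate exporter, was at 179, 148 and 176 FPKM in KO replicates 1 to 3 and at 197, 172 and 200.4 FPKM in Ctr replicates 1 to 3, so that KO was below Ctr at each number while the groups overlapped. Its log2 change was -0.18 (SE 0.10, limma unadjusted p = 0.112, and 0.0313 with the replicate number in the fit). Both had an adjusted p of 0.878 in that fit, and the share of all genes that keep 1 direction at every number was not computed.

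Of the genes of the NRF2 pathway, the main transcriptional response to oxidants, 10 of 14 had a lower estimate (median -0.053). Me1, malic enzyme, a source of NADPH, was at 80.2 ± 7.15 FPKM in KO and 95.5 ± 9.01 FPKM in Ctr (SD, n = 3 each), a log2 change of -0.25 (SE 0.099, limma unadjusted p = 0.0395, adjusted p = 1.0). Gclm belongs to this list as well. In the list of ferroptosis markers and regulators 5 of 7 had a higher estimate (median 0.041), with Sat1, a polyamine acetyltransferase, at a log2 change of 0.072 (SE 0.11) and Fdx1, a mitochondrial ferredoxin, at 0.041 (SE 0.073). Ptgs2, often used as a marker of ferroptosis in mouse tissue, averaged under the level tested, at 0.43 to 0.65 FPKM in KO and 0.55 to 0.75 FPKM in Ctr.

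**Figure D5:**
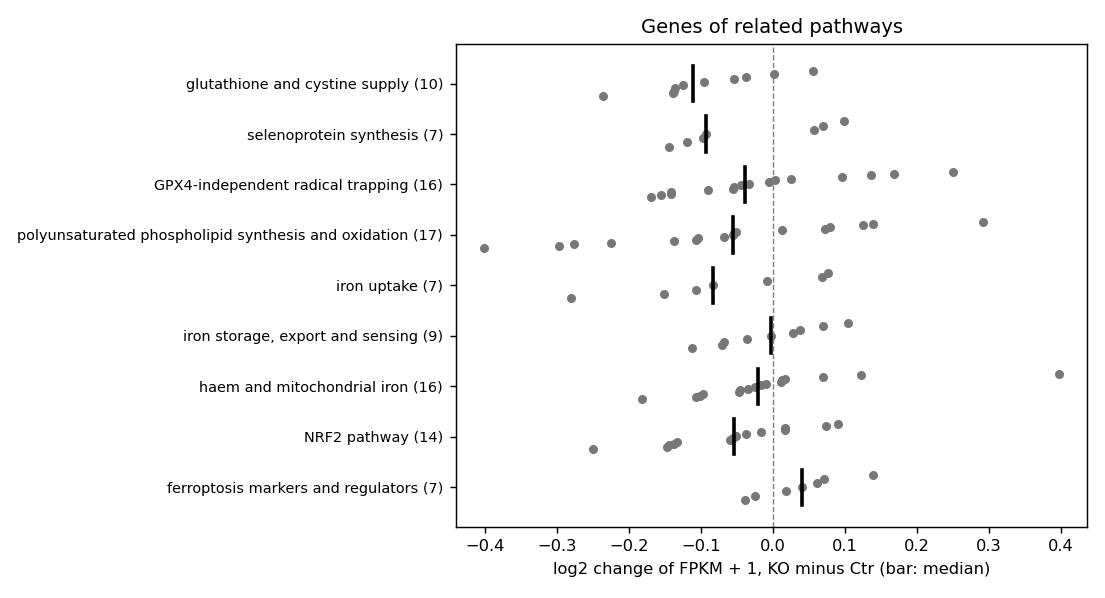
Log2 change of FPKM + 1, KO minus Ctr, of each tested gene (points) in 9 lists of related genes, with the list's median as a bar, the number of genes tested in brackets and a dashed line at 0. Estimates run from -0.40 to 0.40, and the medians from -0.11 for glutathione and cystine supply to 0.041 for ferroptosis markers and regulators.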

How the data were processed

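The authors deposited FPKM values with 2 decimals for 52405 Ensembl identifiers in 6 libraries. The submitters' processing notes name DESeq2 1.28.1, RSEM and STAR 2.6.0c without their roles, and the library kit keeps strand, per the labels' protocols. The sources used here give no build, annotation or strand setting. GENCODE M21 (GRCm38) supplied coordinates and holds 99.4% of the identifiers.

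Values were used as log2(FPKM + 1). This scale understates the change of low genes. Genes with a mean of at least 1 FPKM (12770) entered limma 3.58.1 in R 4.3.3 (intensity trend, two-sided). The fit was run beforehand on simulated data with independent noise and changes larger than any estimated for the members. That run does not bear on changes as small as theirs. Depth was read from the steps of low values in genes with 1 annotated transcript, of which 62.4 to 68.5% lay within 0.1 of a whole number (20% by chance). At 0.5 times the depth 29.0 to 31.5% did. It is approximate. No 2 libraries were identical. Members and lists were chosen with earlier results of these data known. Genes named from the lists were the 2 of smallest p in each. Other genes named from the lists, for their level or their place in a pathway, were chosen after their values were seen.

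Deviations from the group means correlated by 0.63, 0.29 and 0.37 between the KO and Ctr libraries of the same number (1, 2 and 3). Each exceeded 0.1, and on that ground, which the labels do not supply, a fit with the number as a term was also run. KO replicate 2 and Ctr replicate 3 correlated by 0.30 too, and KO replicate 3 and Ctr replicate 2 by 0.15. KO replicate 1 correlated by -0.33 and -0.50 with Ctr replicates 2 and 3. Ctr replicate 1 correlated by -0.44 and -0.39 with KO replicates 2 and 3. These correlations do not settle which libraries, if any, are pairs. The fit reported has no term for the number. Alternatives were another pseudocount, other filters, scalings and left-out libraries.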

Additional observations from a re-analysis of the deposited data

How the results depend on the processing

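None of the 8 genes tested passed the threshold under any of the alternatives run, which changed the pseudocount, filter, scaling or libraries, added the replicate number as a term, or summed copies. Of 106 such values, 99 kept their direction. The 7 that turned were -0.034 for Gpx4 without both libraries numbered 1, -0.0030 for Ftl1 after quantile normalization, and 5 with 1 library left out: -0.031 for Gpx4, 0.011 for Acsl4 and 0.0054 for Aifm2 without KO replicate 1, 0.0071 for Lpcat3 without Ctr replicate 2 and -0.031 for Tfrc without KO replicate 2. With each library left out, the log2 change ran from -0.031 to 0.12 for Gpx4, -0.20 to 0.011 for Acsl4, -0.12 to 0.0054 for Aifm2, -0.064 to 0.0071 for Lpcat3, -0.11 to -0.034 for Fth1, 0.091 to 0.23 for Ftl1, -0.031 to 0.32 for Tfrc and -0.33 to -0.10 for Hmox1. The cause was not tested. The log2 difference of the Fth1 to Ftl1 ratio stayed between -0.26 and -0.17 when each library was left out, was -0.23 without both libraries numbered 1 and was smallest, at -0.12, after quantile normalization. Its paired form, over the 3 replicate numbers, gave -0.22 (exact sign-flip permutation p = 0.25, the smallest possible). Over all genes, 3 passed, against 0 to 4 with each library left out, 1 at a mean FPKM of at least 5 and 6 without both libraries numbered 1. With the replicate block 4 passed, and the call of none of the 8 genes changed. The log2 change of Igf1r ran from -1.73 to -1.41 with each library left out. Precision is limited by 3 libraries per group, with a median half-width of the 95% interval of 0.29 (log2) over all genes tested.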
